A study of Homo sapiens with 27 samples.

Results

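The genes described here are those of the heat shock protein and chaperonin families, the cell's main machinery for folding proteins. They are all genes whose platform symbol begins HSPA, HSPB or HSP90 followed by a number or letter, DNAJA, DNAJB or DNAJC followed by a number, or CCT2 to CCT8, together with TCP1, HSPD1, HSPE1, HSPH1, HYOU1, BAG3 and the heat shock factors. A probe set had to be annotated to a single symbol, and the probe set with the highest mean over all 27 arrays stood for its gene. This gave 93 genes with 255 probe sets, of 18132 genes with a single-symbol probe set. Of the 93, 83 code for protein and 10 are pseudogenes, and 73 passed the filter on dim probe sets (71 coding genes and 2 pseudogenes) and were tested among 12386 genes. The 20 that stayed below it were DNAJB3, DNAJB7, DNAJB8, DNAJC5B, DNAJC5G, CCT8L2, HSPA1L, HSPA6, HSPA12B, HSPB3, HSPB6, HSPB9 and 8 pseudogenes of HSP90 and DNAJA1. HSF2, HSPA1A, HSPB2 and HSPB11 had no single-symbol probe set and were not analysed here.

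Expression was measured on one-colour 3 prime arrays in 3 established human cancer cell lines with 3 biological replicates per group. EBC-1, a non-small cell lung cancer line, and MKN-45, a gastric cancer line, were described by the study as dependent on MET, a receptor tyrosine kinase. HCC827, a non-small cell lung cancer line with active MET, served as the line that does not depend on it. In each line 3 cultures received 1 uM of SGX-523, an inhibitor of the MET kinase, for 24 h, 3 received it for 48 h, and 3 received DMSO, its solvent, for a time the labels do not give. The 24 h and 48 h groups of a line were therefore compared with the same 3 DMSO arrays, and their differences are not independent.

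Proteins of the HSP70 family (HSPA genes) bind unfolded stretches of a protein and release them with each round of ATP hydrolysis. J proteins (DNAJ genes) deliver the substrate and trigger the hydrolysis, and proteins of the HSP110 type (HSPH1, HSPA4, HSPA4L, and HYOU1 in the endoplasmic reticulum) exchange the nucleotide. HSP90 matures kinases and steroid receptors late in their folding, and MET and other receptor kinases are among the kinases known to need it. The chaperonin TRiC, a double ring of TCP1 and the CCT subunits, folds actin and tubulin in its cavity, and HSPD1 with its lid HSPE1 does the same kind of work in mitochondria. HSF1 switches on many of the cytosolic genes under heat or proteotoxic stress, while the chaperones of the endoplasmic reticulum answer to the unfolded protein response.

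All levels below are deposited log2 signals of 1 probe set, and all differences are differences of mean log2 signal, so that 1 is a 2-fold change. Levels of different genes cannot be set against each other, because each probe set has its own affinity. The median signal of an array was between 5.71 and 5.73 in HCC827, 5.02 and 5.10 in EBC-1, and 5.06 and 5.14 in MKN-45. HCC827 was probably scaled apart, so HCC827 levels are not set against those of the other lines. HCC827 SGX-523 24 h replicate 3 stood apart from its group (lowest correlation 0.9457, against at least 0.9947 within every other group), and its deviations enter the spread that all tests share. Epithelial markers reached the array median on all arrays of a line for 4 of 5 genes in EBC-1 (not CDH1) and for all 5 in MKN-45 and in HCC827. Gastric and intestinal markers did so for 5 of 9 genes in EBC-1, 6 of 9 in MKN-45 and 0 of 9 in HCC827, and lung alveolar markers for 3 of 6 in each line. These 3 were NKX2-1, NAPSA and SFTPC each time, so they did not set the lung lines off from the gastric line. Squamous markers did so for 0, 1 and 0 of 4 genes in EBC-1, MKN-45 and HCC827. Leukocyte markers did so for 2 (CD68 and CD14), 0 and 1 of 4, and fibroblast markers for 1 (LUM), 0 and 1 of 6. Of the tested members, 6 lay below the array median on all 9 EBC-1 arrays (DNAJB5, DNAJC18, DNAJC28, HSPB7, HSPB8 and DNAJC6), 4 on all MKN-45 arrays (DNAJB5, HSPB7, HSPB8 and DNAJC6) and 4 on all HCC827 arrays (DNAJA4, HSPA2, DNAJC15 and DNAJC28). A difference at such a signal has an uncertain size.

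Both MET-dependent lines lowered more chaperone transcripts than they raised under SGX-523. In EBC-1 at 24 h, 37 of the 73 tested members were called lower and 15 higher at an adjusted p under 0.05 (limma, Benjamini-Hochberg over all tested genes), where 28.1% of all genes were called lower and 31.2% higher. At 48 h 40 members were lower and 16 higher, against 28.9% and 32.8% of all genes. In MKN-45 at 24 h 36 members were lower and 18 higher, with 26.9% of all genes lower and 33.4% higher. At 48 h 31 were lower and 25 higher, with 26.2% of all genes lower and 36.4% higher. The share of members called lower was 50.7% and 54.8% in EBC-1 and 49.3% and 42.5% in MKN-45 at 24 h and 48 h, above the share among all genes each time. The share called higher was 20.5% and 21.9% in EBC-1 and 24.7% and 34.2% in MKN-45, below that among all genes. The median difference of the 73 members was -0.29 and -0.31 in EBC-1 and -0.17 and -0.12 in MKN-45, while that of all genes was 0.04, 0.07, 0.05 and 0.06. HCC827 gave 0 calls in either direction at 24 h, where 0.0323% of all genes were called higher and 0% lower. There 22 members had an unadjusted p under 0.05, and the share of all genes at that level is not given here. At 48 h 13 HCC827 members were lower and 9 higher, with 10.7% and 11.6% of all genes. Without the array that stood apart 23 were lower and 11 higher, with 19% and 18.5% of all genes, and in a fit of HCC827 alone 5 were lower and 4 higher. In extracts of whole cultures, a smaller share of cells that carry a transcript and less of it per cell cannot be told apart.

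The external control probe sets detect RNA that is added to a sample and not made by its cells. They read higher on the treated arrays of the dependent lines than on their DMSO arrays. The median shift was 0.35 and 0.41 in EBC-1 and 0.33 and 0.28 in MKN-45 at 24 h and 48 h. In HCC827 it was 0.08 and -0.01. The log2 ratio of 3 prime to 5 prime actin signal, a measure of RNA and labelling quality, was 3.76 and 3.89 in treated EBC-1 cells against 3.36 with DMSO, 3.68 and 4.16 in treated MKN-45 cells against 3.53 with DMSO, and 2.65 (SD 0.66) and 2.33 in treated HCC827 cells against 2.08 with DMSO. The part of either in the differences was not tested.

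**Figure D1:**
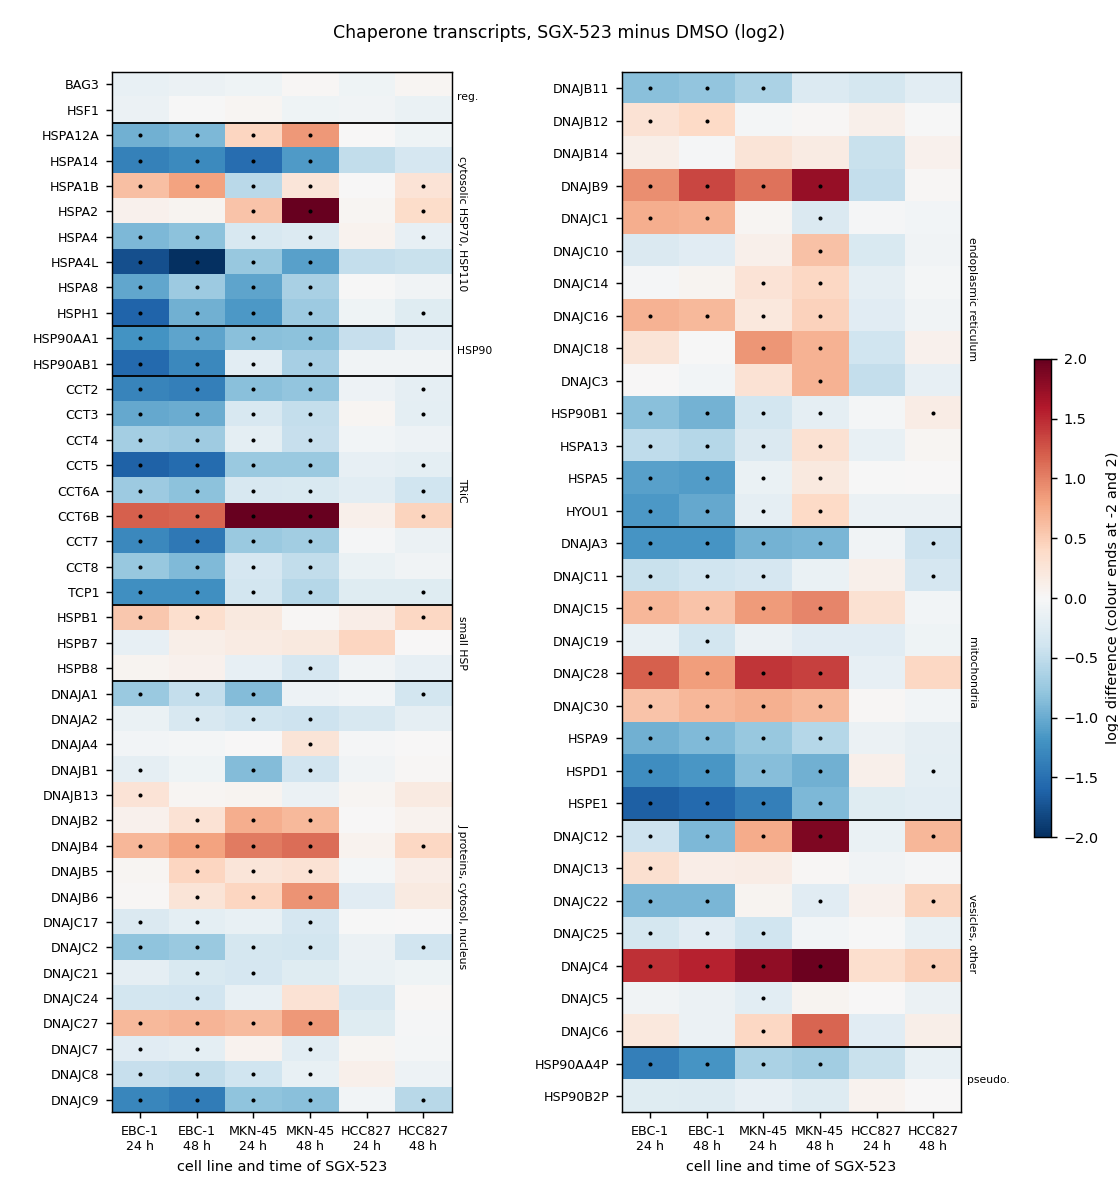
Difference in log2 signal between SGX-523 and DMSO for the 73 tested genes (rows, grouped by class) in each cell line and at each time (columns), 3 arrays per group. Colour runs from blue (lower with SGX-523) to red (higher) and ends at -2 and 2, and a dot marks an adjusted p under 0.05. TRiC, HSP90 and most of the HSP70 rows are blue in EBC-1 and MKN-45 with CCT6B as the red exception, the endoplasmic reticulum rows turn redder in MKN-45 at 48 h, and the HCC827 columns are pale.

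Neither tested regulator was called. HSF1, the factor that drives the heat shock response, had 7.21, 7.30 and 7.23 in EBC-1 at 24 h and 7.28, 7.48 and 7.32 at 48 h, against 7.22, 7.51 and 7.37 with DMSO, and its difference lay between -0.14 and 0.04 over the 6 comparisons with DMSO. BAG3, a co-chaperone of HSP70 in selective autophagy and itself a target of HSF1, had 8.96, 8.98 and 9.0 in EBC-1 at 24 h and 9.05, 9.01 and 9.0 at 48 h, against 9.09, 9.10 and 9.22 with DMSO. All treated EBC-1 arrays lay below all DMSO arrays, but the difference of -0.15 at 24 h had an adjusted p of 0.0766, or 0.0125 without the HCC827 array that stood apart. In MKN-45 the BAG3 groups overlapped (-0.09 at 24 h and 0.02 at 48 h). With limma 0 of these comparisons were called for either gene, and BAG3 in EBC-1 at 24 h was the 1 comparison with an unadjusted p under 0.05.

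Among the 8 tested cytosolic HSP70 and HSP110 genes, 6 fell in EBC-1 at each time and 6 and then 5 fell in MKN-45. Of all genes 28.1% and 28.9% were called lower in EBC-1 and 26.9% and 26.2% in MKN-45. HSPA1B was called higher in EBC-1 at both times and in MKN-45 at 48 h, and HSPA2 and HSPA12A in MKN-45 at both times. HSPA8, the constitutive HSP70 that also strips clathrin from vesicles, had 12.66, 12.62 and 12.65 in EBC-1 at 24 h and 12.95, 12.95 and 12.97 at 48 h, against 13.63, 13.69 and 13.75 with DMSO. In MKN-45 it had 12.10, 12.03 and 12.00 at 24 h and 12.44, 12.47 and 12.44 at 48 h, against 13.09, 13.12 and 13.10 with DMSO. The 24 h arrays were lowest in both lines and no treated array reached a DMSO array. The differences were -1.05 (SE 0.029, adjusted p = 9.43e-20) and -0.73 in EBC-1 and -1.06 and -0.65 in MKN-45. In HCC827 it differed by -0.01 and -0.07, and neither was called.

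HSPH1, the main cytosolic HSP110 and a classical heat shock gene, followed the same course. Its signals were 9.32, 9.36 and 9.46 in EBC-1 at 24 h and 10.03, 10.04 and 9.99 at 48 h, against 10.99, 10.95 and 11.02 with DMSO. MKN-45 gave 9.93, 9.90 and 9.94 at 24 h and 10.33, 10.33 and 10.40 at 48 h, against 11.05, 11.04 and 11.14 with DMSO. HSPH1 was thus 3.05-fold lower at 24 h and 1.96-fold lower at 48 h in EBC-1 and 2.23-fold and 1.65-fold lower in MKN-45 (adjusted p between 6.81e-18 and 3.53e-11). The 7 other kept probe sets of HSPH1 were called lower in these comparisons too.

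HSPA4L, an HSP110 relative abundant in testis, had the largest fall of all members in EBC-1, with 5.68, 5.43 and 5.71 at 24 h and 4.60, 5.08 and 4.84 at 48 h, against 7.42, 7.26 and 7.41 with DMSO. That is a difference of -1.76 and then -2.53 (SE 0.17), and at 48 h the signals lay at or below the array median. In MKN-45 the differences were -0.76 and -1.08. HSPA14, which works on nascent chains at the ribosome together with DNAJC2, had 8.57, 8.62 and 8.54 at 24 h and 8.61, 8.66 and 8.72 at 48 h in EBC-1, against 9.94, 9.96 and 9.89 with DMSO. In MKN-45 it fell by 1.52 and 1.13 on the log2 scale. HSPA4, the third HSP110 relative, fell by 0.89 and 0.82 in EBC-1 and by 0.32 and 0.28 in MKN-45.

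The other HSP70 genes had other directions. HSPA1B, a copy of the stress-inducible HSP70, had 9.69, 9.71 and 9.72 in EBC-1 at 24 h and 9.87, 9.95 and 9.92 at 48 h, against 9.06, 9.07 and 9.2 with DMSO, a rise of 0.60 and 0.80 with no overlap. MKN-45 cells had 8.72, 8.68 and 8.77 at 24 h and 9.51, 9.40 and 9.63 at 48 h, against 9.35, 9.22 and 9.22 with DMSO, which is -0.54 at 24 h and 0.25 at 48 h. The gene was thus called in opposite directions in the 2 lines at 24 h. HSPA1A is nearly identical to HSPA1B, and 4 probe sets annotated to both were left out, so the signal cannot be assigned to HSPA1B alone with certainty. HSPA2, known best from spermatogenesis, stayed near the array median in EBC-1 (5.22, 5.05 and 5.27 at 48 h, against 5.05, 5.21 and 5.12 with DMSO). The MKN-45 signals were 5.44, 5.31 and 5.29 at 24 h and 8.40, 8.40 and 8.54 at 48 h, against 4.98, 4.68 and 4.68 with DMSO, a rise of 0.57 and then of 3.67 (SE 0.12, adjusted p = 1.68e-18). This was the largest difference of any member in any comparison with DMSO, and since the DMSO signals lay below the array median its direction is surer than its size. HSPA12A, a distant relative of HSP70, had 4.74, 4.72 and 4.67 in EBC-1 at 24 h and 4.69, 4.89 and 4.68 at 48 h, against 5.63, 5.61 and 5.75 with DMSO, and 5.43, 5.14 and 4.94 in MKN-45 at 24 h and 5.61, 5.58 and 5.63 at 48 h, against 4.84, 4.65 and 4.74 with DMSO. All lay near the array median, lower than DMSO in EBC-1 (-0.96 and -0.91) and higher in MKN-45 (0.43 and 0.86). Its 24 h call in MKN-45 was lost without MKN-45 SGX-523 24 h replicate 1 (0.30, adjusted p = 0.0558).

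The promoters of HSPA8 and HSPA1B are shown because these genes moved apart in EBC-1 and both hold the core letters of a heat shock element. The windows are the 250 bases before the RefSeq start on GRCh38.p14, at chr11:123062137-123062386 on the minus strand for HSPA8 and chr6:31827488-31827737 on the plus strand for HSPA1B. Capitals mark the core of a heat shock element, GAANNTTC, which reads the same on both strands.
HSPA8: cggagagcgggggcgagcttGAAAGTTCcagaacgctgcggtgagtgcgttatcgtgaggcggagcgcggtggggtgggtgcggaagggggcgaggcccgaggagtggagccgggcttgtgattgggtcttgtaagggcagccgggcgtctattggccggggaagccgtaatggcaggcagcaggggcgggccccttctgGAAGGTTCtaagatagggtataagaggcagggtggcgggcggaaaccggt
HSPA1B: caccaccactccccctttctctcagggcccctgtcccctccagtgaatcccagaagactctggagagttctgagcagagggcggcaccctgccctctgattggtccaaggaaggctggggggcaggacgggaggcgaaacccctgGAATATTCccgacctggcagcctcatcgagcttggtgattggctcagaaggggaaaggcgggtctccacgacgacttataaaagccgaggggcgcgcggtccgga
HSPA8 has the core at 230 and at 50 bases before its start, and HSPA1B has it at 105 bases. The core was found in this window for 17 of the 74 members with a listed promoter (23.0%) and for 7.05% of all 27305 genes. The members with it included 4 of 9 cytosolic HSP70 genes, HSP90AA1, HSP90AB1 and 3 of 6 small heat shock genes, but 0 of 13 genes of the endoplasmic reticulum. Genes that hold the core were among those that fell (HSPA8, HSP90AA1, CCT2, TCP1) and among those that rose (HSPB1 and HSPA1B in EBC-1). DNAJB1, HSPD1 and DNAJA1 hold it too. A match is a description of the letters. Near matches and places further away were not searched, so members without a match cannot be said to lack the element. A part of the element in the differences was not tested.

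Both cytosolic HSP90 genes fell in both dependent lines. HSP90AA1, the inducible form, had 10.28, 10.30 and 10.35 in EBC-1 at 24 h and 10.46, 10.39 and 10.49 at 48 h, against 11.50, 11.48 and 11.54 with DMSO. MKN-45 had 10.92, 10.80 and 10.76 at 24 h and 10.96, 10.86 and 10.72 at 48 h, against 11.59, 11.67 and 11.75 with DMSO. No treated array reached a DMSO array in either line, and the differences were -1.20 and -1.06 in EBC-1 and -0.84 and -0.82 in MKN-45 (adjusted p between 1.25e-06 and 0.000184). HSP90AB1, the constitutive form, had 9.99, 9.81 and 9.84 in EBC-1 at 24 h and 10.14, 10.09 and 10.19 at 48 h, against 11.40, 11.42 and 11.46 with DMSO. Its MKN-45 signals were 11.16, 11.22 and 11.17 at 24 h and 10.82, 10.81 and 10.55 at 48 h, against 11.29, 11.45 and 11.44 with DMSO. The 2 lines ran in opposite orders over time, EBC-1 lowest at 24 h (-1.55, then -1.29) and MKN-45 lowest at 48 h (-0.21, then -0.67). The small MKN-45 fall at 24 h was lost under quantile normalization (-0.15, adjusted p = 0.0632).

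**Figure D2:**
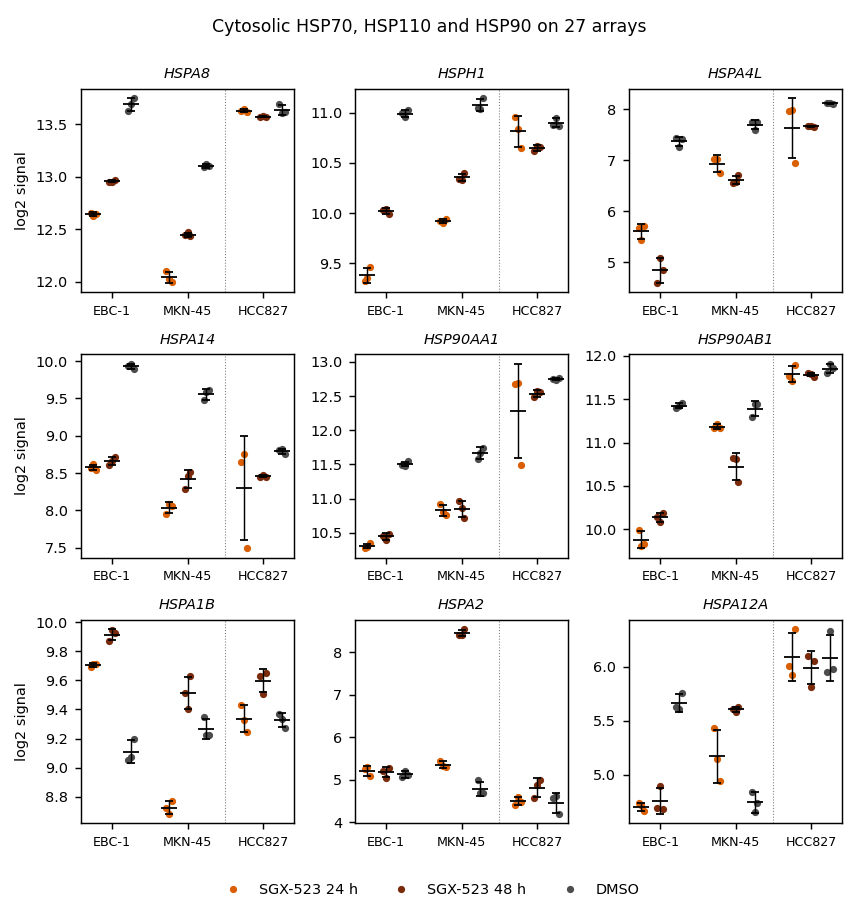
Log2 signal of 9 cytosolic HSP70, HSP110 and HSP90 genes on each of the 27 arrays (points), with group mean and SD (bars, n = 3), for SGX-523 at 24 h, at 48 h and DMSO in each line. The dotted line sets off HCC827, whose arrays were probably scaled apart. HSPA8, HSPH1, HSPA4L, HSPA14 and both HSP90 genes lie lower with SGX-523 in EBC-1 and MKN-45, HSPA1B and HSPA12A move in opposite directions in these lines at 24 h, and HSPA2 stands out in MKN-45 at 48 h alone.

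The chaperonin TRiC fell in both dependent lines. Of its 9 tested genes 8 were called lower and 1 higher in EBC-1 at 24 h and at 48 h and in MKN-45 at 24 h and at 48 h. In these 4 comparisons 28.1%, 28.9%, 26.9% and 26.2% of all genes were called lower. The shares called higher were 31.2%, 32.8%, 33.4% and 36.4%. The 8 were the subunits of the standard ring, TCP1, CCT2, CCT3, CCT4, CCT5, CCT6A, CCT7 and CCT8. CCT5 had 10.55, 10.57 and 10.56 in EBC-1 at 24 h and 10.61, 10.63 and 10.67 at 48 h, against 12.15, 12.22 and 12.16 with DMSO, a 3.06-fold and a 2.91-fold fall (adjusted p = 1.95e-17 and 3.73e-17). MKN-45 gave 11.70, 11.71 and 11.66 at 24 h and 11.72, 11.72 and 11.63 at 48 h, against 12.43, 12.44 and 12.45 with DMSO, so that CCT5 was 1.68-fold lower at 24 h and 1.68-fold lower at 48 h. CCT2 had 10.01, 10.15 and 10.05 and then 9.85, 10.17 and 10.03 in EBC-1, against 11.39, 11.40 and 11.37 with DMSO. Treated and DMSO arrays were far apart for both subunits, by many times the spread within a group.

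TCP1, the founding subunit, had 9.76, 9.70 and 9.77 at 24 h and 9.68, 9.75 and 9.79 at 48 h in EBC-1, against 10.97, 10.93 and 10.99 with DMSO. Over the 8 subunits the difference ran from -1.61 (CCT5) to -0.68 (CCT4) in EBC-1 at 24 h and from -1.54 (CCT5) to -0.71 (CCT4) at 48 h. In MKN-45 it ran from -0.83 (CCT2) to -0.20 (CCT4) at 24 h and from -0.79 (CCT2) to -0.30 (CCT6A) at 48 h. CCT4 changed least in 3 of the 4 comparisons. Each of the 8 subunits fell further in EBC-1 than in MKN-45 by the test of that difference. The EBC-1 minus MKN-45 difference ran from -0.86 (CCT5) to -0.41 (CCT6A) at 24 h and from -0.79 (CCT5) to -0.25 (CCT4) at 48 h.

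CCT6B, a subunit expressed mainly in testis and the closest relative of CCT6A, went the other way. It had 8.52, 8.51 and 8.56 in EBC-1 at 24 h and 8.47, 8.48 and 8.52 at 48 h, against 7.28, 7.37 and 7.34 with DMSO. MKN-45 had 8.04, 7.93 and 7.79 at 24 h and 7.71, 7.88 and 7.70 at 48 h, against 5.80, 5.61 and 5.70 with DMSO. These are rises of 2.3-fold and 2.24-fold in EBC-1 and 4.65-fold and 4.17-fold in MKN-45, while CCT6A fell by 0.72 and 0.82 in EBC-1 and 0.31 and 0.30 in MKN-45 on the log2 scale. In HCC827 at 48 h CCT6B rose by 0.44 (adjusted p = 0.00127), with all treated arrays above all DMSO arrays. Its HCC827 signals reached the array median on 1 of 9 arrays, so the size of this rise is uncertain.

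**Figure D3:**
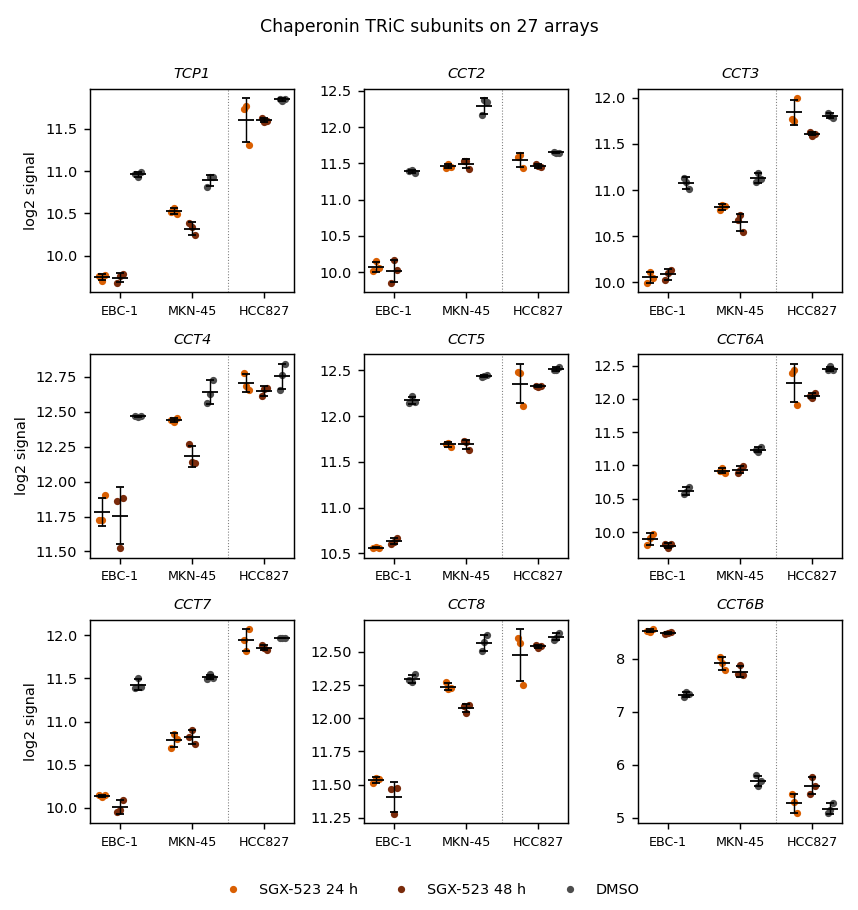
Log2 signal of the 9 TRiC genes on each of the 27 arrays (points), with group mean and SD (bars, n = 3), for SGX-523 at 24 h, at 48 h and DMSO in each line. The dotted line sets off HCC827. In EBC-1 and MKN-45 the treated arrays lie below the DMSO arrays in 8 panels and above them for CCT6B, with wider gaps in EBC-1 in the 8.

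Only 3 of the small heat shock genes could be tested. HSPB1 (HSP27), which holds unfolding proteins until HSP70 takes over and also binds actin, had 10.23, 10.21 and 10.26 in EBC-1 at 24 h and 10.06, 10.03 and 10.01 at 48 h, against 9.75, 9.72 and 9.60 with DMSO, a rise of 0.54 and 0.34. In MKN-45 the groups overlapped (0.20, adjusted p = 0.0772 at 24 h, or 0.00885 without the HCC827 array that stood apart). HCC827 rose at 48 h by 0.42, with 10.60, 10.54 and 10.48 at 48 h against 10.24, 10.11 and 10.01 with DMSO. HSPB8, the partner of BAG3, differed by -0.34 in MKN-45 at 48 h (adjusted p = 0.0133), where its signals ran from 3.20 to 3.78 and never reached the array median, and it was not called elsewhere, and HSPB7 was called in none of the 6 comparisons.

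The 17 tested J proteins of the cytosol and nucleus were mixed, with 7 lower and 3 higher in EBC-1 at 24 h, 9 and 5 at 48 h, 7 and 5 in MKN-45 at 24 h, and 7 and 6 at 48 h. The shares called lower were 41.2% and 52.9% in EBC-1 and 41.2% and 41.2% in MKN-45, where those of all genes were 28.1%, 28.9%, 26.9% and 26.2%. The shares called higher were 17.6%, 29.4%, 29.4% and 35.3%, of which the last 3 are near those of all genes (32.8%, 33.4% and 36.4%) and the first is below it (31.2%). DNAJC9 and DNAJC2 had the largest mean fall over the EBC-1 and MKN-45 comparisons. DNAJC9, a chaperone of histones H3 and H4, had 9.02, 9.03 and 9.01 in EBC-1 at 24 h and 8.88, 8.98 and 8.93 at 48 h, against 10.30, 10.38 and 10.31 with DMSO. In MKN-45 its differences were -0.81 and -0.83, and in HCC827 at 48 h, with 10.15, 10.08 and 10.12 against 10.69, 10.65 and 10.66 with DMSO, -0.55 (adjusted p = 4.48e-09), the largest fall of any member in that line. DNAJC2, which sits on the ribosome with HSPA14, had 10.65, 10.60 and 10.68 in EBC-1 at 24 h and 10.71, 10.70 and 10.72 at 48 h, against 11.48, 11.44 and 11.44 with DMSO. It fell by 0.81 and 0.74 in EBC-1 and by 0.36 and 0.37 in MKN-45. DNAJC8, a spliceosome component, fell by 0.47 and 0.50 in EBC-1 and by 0.41 and 0.15 in MKN-45.

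DNAJB1 (HSP40), the J protein induced with HSP70 by heat, had 7.53, 7.42 and 7.68 in MKN-45 at 24 h and 8.02, 8.06 and 8.0 at 48 h, against 8.48, 8.36 and 8.38 with DMSO. It fell there by 0.87 and then by 0.38. In EBC-1 it was called at 24 h alone (-0.18, adjusted p = 0.0392), a call lost without any single one of the 6 EBC-1 arrays compared. DNAJA1, a farnesylated partner of HSPA8, fell in EBC-1 by 0.75 and 0.47 and in MKN-45 by 0.87 at 24 h, with -0.11 and adjusted p = 0.125 at 48 h. Its 4 other kept probe sets were called lower in MKN-45 at 48 h, by up to -0.39. Without the HCC827 array that stood apart, the probe set used was called lower there too (adjusted p = 0.0327). DNAJA2 was called lower at 48 h in both lines (-0.32 in EBC-1 and -0.41 in MKN-45), but its other probe set was called higher in each of these comparisons, so its direction depends on the probe set. In MKN-45 at 24 h it was called lower too (-0.40, adjusted p = 0.0115), and there the other probe set was not called (-0.07).

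DNAJB4 and DNAJC27 rose in both lines. DNAJB4, an HSP40 relative also called HLJ1, had 8.22, 8.19 and 8.27 in EBC-1 at 24 h and 8.39, 8.31 and 8.42 at 48 h, against 7.56, 7.57 and 7.58 with DMSO. MKN-45 had 6.73, 6.46 and 6.5 at 24 h and 6.69, 6.59 and 6.65 at 48 h, against 5.63, 5.49 and 5.45 with DMSO, so that the gene was 1.58-fold and 1.75-fold higher in EBC-1 and 2.06-fold and 2.18-fold higher in MKN-45. DNAJC27, which carries a small GTPase domain beside its J domain, had 6.41, 6.34 and 6.55 in EBC-1 at 24 h and 6.56, 6.49 and 6.34 at 48 h, against 5.68, 5.77 and 5.89 with DMSO. It rose by 0.65 and 0.68 in EBC-1 and 0.64 and 0.86 in MKN-45. DNAJB2, a neuronal J protein, rose in MKN-45 (0.73 and 0.64) and in EBC-1 at 48 h (0.28), and DNAJB6, a suppressor of aggregation, had the same calls (0.43 and 0.91 in MKN-45, 0.25 in EBC-1). Another 2 probe sets of DNAJB6 were called lower in MKN-45 at 48 h and higher in EBC-1 at both times, so its direction depends on the probe set too. DNAJB5 was called higher in EBC-1 at 48 h (0.44) and in MKN-45 at both times (0.24 and 0.29), but its signals there, 4.09 to 4.70 in EBC-1 and 3.96 to 4.41 in MKN-45, never reached the array median, and it passed the filter through the HCC827 arrays alone. The rest had smaller calls. DNAJC17 and DNAJC7 were lower in EBC-1 at both times and in MKN-45 at 48 h, by differences between -0.34 and -0.19. DNAJC21, a ribosome assembly factor, was lower in EBC-1 at 48 h (-0.31) and in MKN-45 at 24 h (-0.33), DNAJC24, which serves the diphthamide modification, was lower in EBC-1 at 48 h (-0.39), and DNAJB13, a sperm flagellum protein, was higher in EBC-1 at 24 h (0.27). DNAJA4 was called higher in MKN-45 at 48 h (0.26) where its dimmer probe set was called lower (-0.55).

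The chaperones of the endoplasmic reticulum had different calls in the dependent lines. Of 14 tested, 5 fell and 4 rose in EBC-1 at each time and in MKN-45 at 24 h, while in MKN-45 at 48 h 9 rose and 2 fell. A count of 5 is 35.7% of the 14 and one of 4 is 28.6%, near the shares of all genes in these comparisons (26.9% to 28.9% lower and 31.2% to 33.4% higher). In MKN-45 at 48 h 64.3% were higher and 14.3% lower, with 36.4% and 26.2% of all genes. HSPA5 (BiP), the HSP70 of this compartment which also holds the sensors of the unfolded protein response inactive, had 11.11, 11.10 and 11.13 in EBC-1 at 24 h and 11.04, 11.08 and 11.13 at 48 h, against 12.22, 12.19 and 12.21 with DMSO. This is a 2.13-fold and a 2.17-fold fall (SE 0.037 on the log2 scale, adjusted p = 3.16e-18 and 1.4e-18). In MKN-45 it had 11.95, 12.02 and 11.99 at 24 h and 12.32, 12.29 and 12.32 at 48 h, against 12.14, 12.07 and 12.16 with DMSO. The MKN-45 differences of -0.13 and 0.19 were both called, but the first was lost under quantile normalization (-0.07, adjusted p = 0.129) and the second with the mean of the gene's kept probe sets (0.045, adjusted p = 0.873). HCC827 differed by -0.01 at 24 h and 0.01 at 48 h, with no call.

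HYOU1 (GRP170), the nucleotide exchange partner of HSPA5, had 5.76, 5.96 and 5.83 in EBC-1 at 24 h and 5.99, 6.07 and 5.87 at 48 h, against 6.91, 7.03 and 7.04 with DMSO. MKN-45 cells had 8.54, 8.61 and 8.52 at 24 h and 9.14, 9.12 and 9.10 at 48 h, against 8.71, 8.77 and 8.70 with DMSO. EBC-1 fell by 1.15 and 1.02, the largest fall among the gene's 6 kept probe sets at each time. The 6 ran up to -0.19 at 24 h, with 3 of the 5 others called lower, and up to -0.13 at 48 h, with 2 of the 5 others called lower. MKN-45 was called lower at 24 h (-0.17) and higher at 48 h (0.39). The MKN-45 call at 24 h was lost under quantile normalization (-0.18, adjusted p = 0.0687) and without MKN-45 DMSO replicate 2 (-0.15, adjusted p = 0.0885) or SGX-523 24 h replicate 1 (-0.16, adjusted p = 0.0651) or 3 (-0.15, adjusted p = 0.0819), and that at 48 h with the mean of its kept probe sets (0.14, adjusted p = 0.0575).

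HSP90B1 (GRP94), the HSP90 of this compartment, which folds integrins and other membrane proteins, had 11.75, 11.85 and 11.83 in EBC-1 at 24 h and 11.72, 11.63 and 11.76 at 48 h, against 12.61, 12.69 and 12.61 with DMSO. The MKN-45 signals were 12.59, 12.59 and 12.63 at 24 h and 12.76, 12.79 and 12.81 at 48 h, against 12.97, 12.93 and 13.00 with DMSO. It was called lower in both lines at both times, with differences of -0.83 and -0.94 in EBC-1 and -0.37 and -0.18 in MKN-45, and higher in HCC827 at 48 h (0.15, adjusted p = 0.0121). DNAJB11 (ERdj3), a soluble J protein that brings substrates to HSPA5, had 9.36, 9.49 and 9.42 in EBC-1 at 24 h and 9.50, 9.39 and 9.53 at 48 h, against 10.27, 10.22 and 10.29 with DMSO. It fell by 0.84 and 0.79 there and by 0.63 in MKN-45 at 24 h. In MKN-45 at 48 h DNAJB11 was not called with all arrays (-0.275, adjusted p = 0.0954), though all treated arrays lay below all DMSO arrays. Without the HCC827 array that stood apart it was called lower (adjusted p = 1.86e-06). HSPA13, a microsomal HSP70 that lacks the substrate binding part, had 7.92, 8.23 and 8.11 in MKN-45 at 24 h and 8.70, 8.62 and 8.73 at 48 h, against 8.45, 8.29 and 8.38 with DMSO. It was lower in EBC-1 (-0.51 and -0.57) and in MKN-45 at 24 h (-0.29) but higher in MKN-45 at 48 h (0.31), where another of its probe sets was called lower (-0.47).

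The promoters of HSPA5 and HSP90B1 are shown for their exact match to the ER stress response element, through which ATF6 acts. They alone among the 74 members with a listed promoter have such a match in the 250 bases searched. Near matches and places further away were not searched, so the other members cannot be said to lack the element. The windows are the 250 bases before the RefSeq start on GRCh38.p14, at chr9:125241344-125241593 on the minus strand for HSPA5 and chr12:103930160-103930409 on the plus strand for HSP90B1. Capitals mark the element, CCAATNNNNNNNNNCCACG on either strand, and in HSP90B1 also an E box, CACGTG, the site of MYC and related factors.
HSPA5: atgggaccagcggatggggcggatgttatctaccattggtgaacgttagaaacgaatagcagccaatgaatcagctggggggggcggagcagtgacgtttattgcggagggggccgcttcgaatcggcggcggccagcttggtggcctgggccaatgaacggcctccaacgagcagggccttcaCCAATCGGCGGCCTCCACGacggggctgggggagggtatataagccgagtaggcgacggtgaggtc
HSP90B1: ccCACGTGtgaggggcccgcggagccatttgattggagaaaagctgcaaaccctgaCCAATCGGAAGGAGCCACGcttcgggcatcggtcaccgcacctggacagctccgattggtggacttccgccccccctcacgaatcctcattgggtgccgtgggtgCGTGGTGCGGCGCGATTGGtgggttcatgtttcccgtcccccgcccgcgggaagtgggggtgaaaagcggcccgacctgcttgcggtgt
HSPA5 has the element at 66 bases before its start, and HSP90B1 at 194 bases on the plus strand and at 89 bases on the minus strand. An exact match was found for 2 of 74 members (2.7%) and for 0.0916% of all 27305 genes.

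DNAJB9 (ERdj4), a J protein that holds the sensor IRE1 inactive, rose while HSPA5 fell in EBC-1. It had 9.47, 9.39 and 9.46 in EBC-1 at 24 h and 9.82, 9.79 and 9.94 at 48 h, against 8.47, 8.49 and 8.57 with DMSO. Its MKN-45 signals were 8.53, 8.63 and 8.71 at 24 h and 9.36, 9.23 and 9.25 at 48 h, against 7.67, 7.51 and 7.44 with DMSO. The rises were 1.91-fold and 2.53-fold in EBC-1 and 2.12-fold and 3.34-fold in MKN-45. DNAJC16 had 8.56, 8.55 and 8.48 in EBC-1 at 24 h and 8.48, 8.53 and 8.45 at 48 h, against 7.78, 7.90 and 7.84 with DMSO. It was higher in EBC-1 (0.69 and 0.64) and in MKN-45 at 48 h (0.47), and its call in MKN-45 at 24 h (0.21, adjusted p = 0.0471) was lost under several other settings.

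Members called higher in MKN-45 at 48 h included DNAJC3 (P58IPK), an inhibitor of the kinases that phosphorylate eIF2 alpha, and DNAJC10 (ERdj5), a disulphide reductase of ER-associated degradation. DNAJC3 was higher there by 0.70 (SE 0.21) and DNAJC10 by 0.58 (SE 0.18), and the EBC-1 minus MKN-45 difference was -0.75 and -0.81, both called. In EBC-1 DNAJC3 was not called, and DNAJC10 was not called with all arrays (-0.29 at 24 h and -0.22 at 48 h). Its treated EBC-1 arrays lay below all DMSO arrays, and without the HCC827 array that stood apart it was called lower with an adjusted p of 7e-04 at 24 h and 0.00701 at 48 h. DNAJC18 was higher in MKN-45 at both times (0.88 and 0.70), as was DNAJC14 (0.27 and 0.42). DNAJC1 (ERdj1), a membrane J protein at the ribosome, had 9.84, 9.74 and 9.92 in EBC-1 at 48 h, against 9.18, 9.13 and 9.09 with DMSO, and 9.35, 9.38 and 9.17 in MKN-45 at 48 h, against 9.59, 9.64 and 9.55 with DMSO. It was higher in EBC-1 (0.72 and 0.70) and lower in MKN-45 at 48 h (-0.29). DNAJB12, a J protein of the ER membrane that sends misfolded membrane proteins to degradation, was higher in EBC-1 (0.29 and 0.40), and its relative DNAJB14 was called in none of the 6 comparisons.

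**Figure D4:**
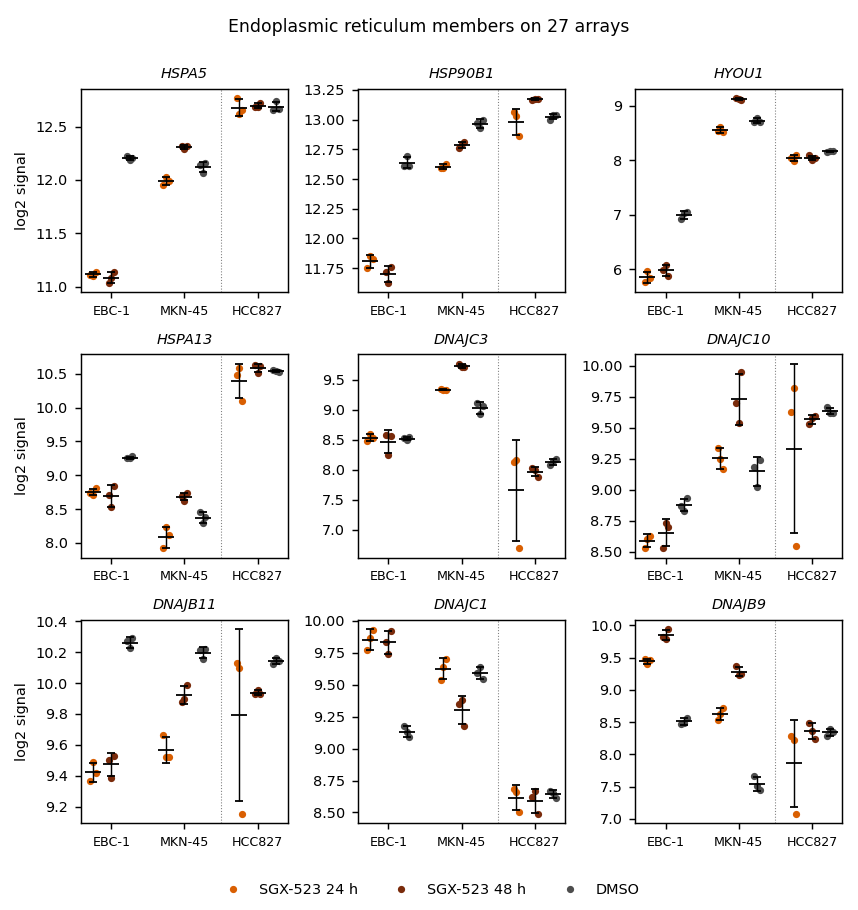
Log2 signal of 9 chaperones of the endoplasmic reticulum on each of the 27 arrays (points), with group mean and SD (bars, n = 3), for SGX-523 at 24 h, at 48 h and DMSO in each line. The dotted line sets off HCC827. HSPA5, HSP90B1 and HYOU1 lie well below DMSO in treated EBC-1 cells and near it in MKN-45, DNAJB9 lies above it in both, and DNAJC3 and DNAJC10 are highest in MKN-45 at 48 h.

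In mitochondria the core folding machine fell in both dependent lines. HSPE1, the lid, had 7.99, 8.12 and 7.99 in EBC-1 at 24 h and 8.03, 8.25 and 8.07 at 48 h, against 9.65, 9.75 and 9.62 with DMSO. MKN-45 gave 7.69, 7.76 and 7.72 at 24 h and 8.09, 8.31 and 8.16 at 48 h, against 9.07, 9.15 and 9.04 with DMSO, and the falls were 3.1-fold and 2.93-fold in EBC-1 and 2.57-fold and 1.86-fold in MKN-45. HSPD1 (HSP60), the barrel itself, had 11.11, 11.28 and 11.25 in EBC-1 at 24 h and 11.25, 11.29 and 11.32 at 48 h, against 12.62, 12.31 and 12.43 with DMSO. In MKN-45 it had 11.49, 11.41 and 11.36 at 24 h and 11.32, 11.31 and 11.30 at 48 h, against 12.22, 12.25 and 12.36 with DMSO. No treated array of either line reached its DMSO arrays for these genes. The differences for HSPD1 were -1.24 and -1.17 in EBC-1 and -0.86 and -0.97 in MKN-45, and -0.20 in HCC827 at 48 h (adjusted p = 0.0129).

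HSPD1 and HSPE1 lie head to head on chromosome 2, and the stretch between their starts is shown because both genes fell together. It is 104 bases long in RefSeq on GRCh38.p14, at chr2:197500275-197500378, and is written on the plus strand, in the direction of HSPE1. Capitals mark the E box, CACGTG.
HSPE1: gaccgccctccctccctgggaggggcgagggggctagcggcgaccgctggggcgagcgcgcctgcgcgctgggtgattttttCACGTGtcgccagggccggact
The E box lies 22 bases before the start of HSPE1. It was found in the promoter windows of 8 of 74 members (10.8%) and of 7.73% of all genes, and of 3 of 9 mitochondrial members (HSPA9, HSPD1 and HSPE1). The E box shown lies in the windows of both HSPD1 and HSPE1, so this single place is counted for each of them in the 3 and in the 8.

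HSPA9 (mortalin), the HSP70 that pulls proteins into the matrix, had 10.69, 10.66 and 10.68 in EBC-1 at 24 h and 10.76, 10.67 and 10.84 at 48 h, against 11.66, 11.58 and 11.67 with DMSO. It fell by 0.96 and 0.88 in EBC-1 and by 0.75 and 0.57 in MKN-45. DNAJA3 (TID1), its J protein for folding, fell by 1.18 and 1.18 in EBC-1 and by 0.94 and 0.92 in MKN-45, and in HCC827 at 48 h by 0.42 (adjusted p = 0.000566). DNAJC11, a protein tied to the cristae organising complex, fell in EBC-1 (-0.44 and -0.40), in MKN-45 at 24 h (-0.33) and in HCC827 at 48 h (-0.34). DNAJC19, of the import motor, was called lower in EBC-1 at 48 h (-0.37), where its other probe set was called higher (0.23).

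Among the other mitochondrial J proteins DNAJC15 and DNAJC30 rose in both lines. DNAJC15 (MCJ), a J protein of the inner membrane that restrains complex I, had 12.35, 12.26 and 12.29 in MKN-45 at 24 h and 12.44, 12.39 and 12.41 at 48 h, against 11.44, 11.42 and 11.46 with DMSO. It rose by 0.86 and 0.97 there and by 0.66 and 0.56 in EBC-1. DNAJC30, which acts in the repair of complex I, rose by 0.57 and 0.67 in EBC-1 and by 0.71 and 0.65 in MKN-45. DNAJC28 had 4.79, 4.71 and 4.78 in EBC-1 at 24 h and 4.64, 4.20 and 4.34 at 48 h, against 3.63, 3.41 and 3.64 with DMSO, and all of these signals were below the array median. Only 4 arrays, all of treated MKN-45 cells, brought DNAJC28 past the filter. Its differences are therefore given as a description alone, 1.20 and 0.83 in EBC-1 and 1.42 and 1.36 in MKN-45.

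Among the 7 tested members of vesicles or of other or unsettled location, DNAJC4 stood at the top. It had 8.41, 8.41 and 8.53 in EBC-1 at 24 h and 8.50, 8.56 and 8.51 at 48 h, against 7.04, 6.95 and 6.96 with DMSO. MKN-45 cells had 9.19, 9.23 and 9.21 at 24 h and 9.33, 9.38 and 9.47 at 48 h, against 7.50, 7.52 and 7.30 with DMSO. The rises were 2.76-fold and 2.9-fold in EBC-1 and 3.41-fold and 3.87-fold in MKN-45, and 1.39-fold in HCC827 at 48 h (adjusted p = 0.000229).

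DNAJC12, a co-chaperone of the aromatic amino acid hydroxylases, had 7.24, 7.10 and 7.18 in EBC-1 at 24 h and 6.64, 6.62 and 6.77 at 48 h, against 7.55, 7.63 and 7.57 with DMSO. The MKN-45 signals were 7.67, 7.46 and 7.60 at 24 h and 8.61, 8.74 and 8.73 at 48 h, against 6.80, 6.84 and 6.84 with DMSO. The lines moved in opposite directions at both times, and in each the 48 h arrays lay further from DMSO than the 24 h arrays. In HCC827 it had 8.62, 8.82 and 8.55 at 48 h, against 8.0, 8.0 and 7.99 with DMSO, a rise of 0.67. DNAJC22 had 7.34, 7.16 and 7.41 in EBC-1 at 24 h and 7.15, 7.41 and 7.38 at 48 h, against 8.19, 8.29 and 8.18 with DMSO. It fell in EBC-1 by 0.92 and 0.91 and rose in HCC827 at 48 h by 0.44, and its call in MKN-45 at 48 h (-0.23, adjusted p = 0.0256) depended on the settings. DNAJC25 had 6.68, 6.76 and 6.69 in EBC-1 at 24 h and 6.80, 6.74 and 6.95 at 48 h, against 7.03, 7.03 and 7.11 with DMSO. It was lower in EBC-1 at both times (-0.35 and -0.22) and in MKN-45 at 24 h (-0.40), with the EBC-1 call at 48 h lost without EBC-1 DMSO replicate 3 (-0.20, adjusted p = 0.0865) or SGX-523 48 h replicate 1 (-0.21, adjusted p = 0.068) or 2 (-0.18, adjusted p = 0.118). DNAJC13, of endosome sorting, was higher in EBC-1 at 24 h (0.32), and DNAJC5, the cysteine string protein of synaptic vesicles, was lower in MKN-45 at 24 h (-0.21). DNAJC6 (auxilin), which uncoats clathrin vesicles with HSPA8, was called higher in MKN-45 (0.41 and 1.17), but its MKN-45 signals ran from 2.63 to 4.06, below the array median, and the 24 h call was lost under several other settings.

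The pseudogene HSP90AA4P had 10.79, 10.71 and 10.72 in EBC-1 at 24 h and 10.89, 10.98 and 10.96 at 48 h, against 12.05, 12.15 and 12.15 with DMSO. It fell in EBC-1 (-1.38 and -1.17) and in MKN-45 (-0.64 and -0.70). It is a near copy of HSP90AA1, whose transcripts its probes may read, so the 2 cannot be told apart here. HSP90B2P was called in none of the 6 comparisons. Of the members tested, 49 had at least 2 kept probe sets, and of those called a second probe set was called in the opposite direction for 0 of 36 in EBC-1 at 24 h, 2 of 39 at 48 h, 0 of 39 in MKN-45 at 24 h, 4 of 41 at 48 h and 0 of 15 in HCC827 at 48 h.

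Partners of these chaperones outside the set were counted from lists, to be read beside the shares of all genes called lower (28.1% and 28.9% in EBC-1, 26.9% and 26.2% in MKN-45 at 24 h and 48 h) and higher (31.2%, 32.8%, 33.4% and 36.4%). Several counts lie near these shares, among them the higher prefoldins in MKN-45. Of 18 tested co-chaperones of HSP70 and HSP90, 10 were lower and 4 higher in EBC-1 at 24 h, 10 and 3 at 48 h, 10 and 2 in MKN-45 at 24 h, and 7 and 3 at 48 h. STIP1 (HOP), which links HSP70 to HSP90, differed by -1.59 and -1.31 in EBC-1 and -1.24 and -0.76 in MKN-45 at 24 h and 48 h. FKBP4 (FKBP52), a cochaperone of HSP90 with steroid receptors, differed by -1.41 and -1.23 in EBC-1 and -1.47 and -1.52 in MKN-45, whereas its relative FKBP5 was higher in MKN-45 (0.59 and 1.41). ST13, from the same list, was called higher in both lines at both times (0.55 and 0.46 in EBC-1, 0.50 and 0.175 in MKN-45). BAG1 was higher in EBC-1 (0.43 and 0.96) and lower in MKN-45 at 24 h (-0.37). Of 9 mitochondrial partners, 7 were lower in EBC-1 at each time with 0 higher, and 7 and 6 were lower in MKN-45 with 2 and 1 higher. They include GRPEL1, the nucleotide exchanger of HSPA9 (-1.70 and -1.61 in EBC-1, -1.69 and -1.53 in MKN-45), and TRAP1, the mitochondrial HSP90 (-1.25 and -1.40 in EBC-1, -0.93 and -1.35 in MKN-45). Of 9 prefoldins and TRiC cofactors 4 were lower and 2 higher in EBC-1 at 24 h, 4 and 1 at 48 h, 5 and 3 in MKN-45 at 24 h, and 4 and 3 at 48 h. PFDN2, a prefoldin subunit that hands actin and tubulin to TRiC, was lower at each time (-1.40 and -1.37 in EBC-1, -1.02 and -0.66 in MKN-45). PFDN5, another prefoldin subunit, was called higher at each time (0.50 and 0.465 in EBC-1, 0.48 and 0.37 in MKN-45).

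Of 10 tested targets of the heat shock response outside the families, 7 were lower and 0 higher in EBC-1 at each time, 6 and 2 in MKN-45 at 24 h, and 5 and 3 at 48 h. STIP1, FKBP4 and CHORDC1 stand in this list and among the co-chaperones and are counted in both. Of 11 regulators and targets of the unfolded protein response, 5 were lower and 3 higher in EBC-1 at each time, 3 and 5 in MKN-45 at 24 h, and 2 and 8 at 48 h. XBP1, whose spliced form is a main activator of this response, differed by -0.46 and -0.62 in EBC-1 and by 1.01 and 1.45 in MKN-45. EIF2AK3 (PERK), a sensor of the same response, differed by 0.02 and 0.11 in EBC-1 with no call and rose by 0.85 and 1.27 in MKN-45. SDF2L1 and MANF, soluble proteins of the ER lumen, differed by -2.47 and -2.19 and by -1.77 and -1.79 in EBC-1, and by -0.82 and -0.16 and by -0.36 and 0.15 in MKN-45. The 3 called higher in EBC-1 at each time were DDIT3 (0.90 and 0.77), SEL1L (0.51 and 0.50) and ATF4 (0.30 and 0.12), so this list was split in EBC-1. In HCC827 at 48 h these lists gave 0 higher and 4 lower co-chaperones, 1 and 0 prefoldins, 0 and 2 mitochondrial partners, 1 and 1 heat shock targets and 2 and 2 unfolded protein response genes.

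Time was compared within SGX-523, 48 h against 24 h. In EBC-1 6 of 73 members were called higher at 48 h and 2 lower, where 4.99% of all genes were higher and 6.08% lower. HSPH1 (0.64), DNAJB5 (0.40, below the array median), HSPA8 (0.32), DNAJA1 (0.28), HSP90AB1 (0.26) and HSPA1B (0.21) were higher, and HSPA4L (-0.76) and DNAJC12 (-0.50) were lower. Of these, HSPH1, HSPA8, DNAJA1 and HSP90AB1 were lower than DMSO at both times in EBC-1. In MKN-45 21 members were higher and 7 lower, with 14.9% of all genes higher and 9.34% lower. The higher ones included HSPA2 (3.10), DNAJC12 (1.12), HSPA1B (0.79), DNAJA1 (0.76), DNAJB9 (0.66), HYOU1 (0.57), DNAJB1 (0.48), HSPE1 (0.46) and HSPH1 (0.43). The lower ones were HSP90AB1 (-0.46), DNAJC1, DNAJC22, DNAJC7, CCT4, TCP1 and CCT3. In HCC827 10 were higher and 11 lower, with 15.8% and 10.7% of all genes and with the 24 h array that stood apart in this comparison. Without that array EBC-1 had 19 calls in place of 8.

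The responses of the dependent lines were compared directly, as the EBC-1 difference from DMSO minus the MKN-45 difference, which share no arrays. At 24 h 30 of 73 members were called lower in EBC-1 and 6 higher, with 23.8% of all genes lower and 18.4% higher. At 48 h 40 were lower and 5 higher, with 29.4% of all genes lower and 19.6% higher. At 48 h the members lower in EBC-1 included HSPA2 (-3.62), HSPA4L (-1.44), HYOU1 (-1.41), HSPA5 (-1.31, SE 0.052, adjusted p = 4.49e-16), HSP90B1 (-0.76), HSP90AB1 (-0.62) and HSPE1 (-0.65). The 5 higher in EBC-1 were DNAJC1 (0.99), HSPA1B (0.56), HSPB8 (0.43, with signals below the array median in both lines), DNAJB12 (0.37) and DNAJB1 (0.30). HSPA8 and HSPA14 were not among the calls at either time, with differences of 0.01 (SE 0.042) and 0.16 (SE 0.25) at 24 h. Members called in opposite directions in the 2 lines were HSPA12A, HSPA1B and DNAJC12 at 24 h and HSPA12A, DNAJC1, HSPA13, HSPA5, HYOU1 and DNAJC12 at 48 h. These were 3 of 73 members at 24 h and 6 at 48 h, beside 627 and 852 of all 12386 genes. The counts are near the share of all genes, so opposite calls were not particular to the members.

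**Figure D5:**
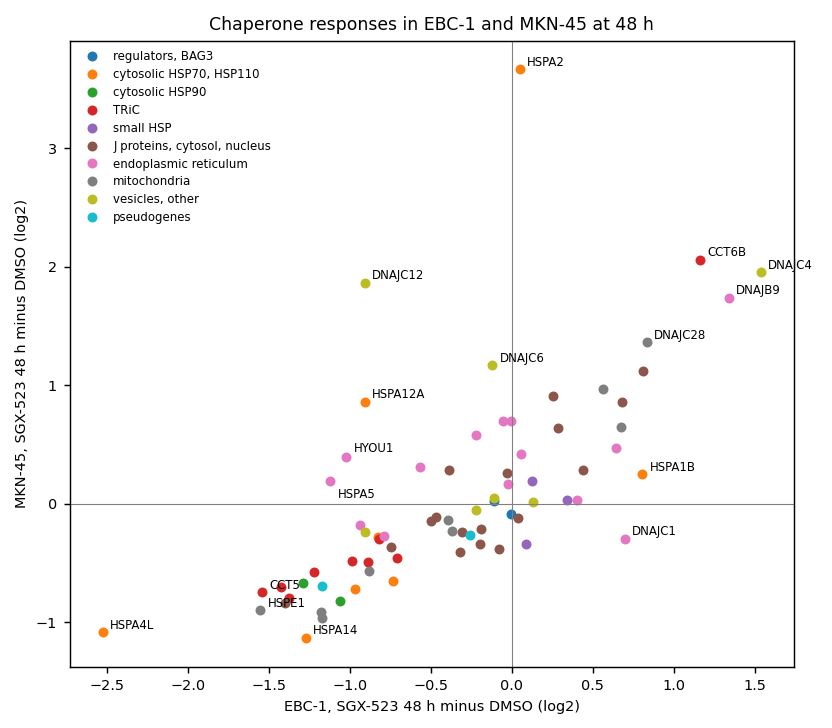
Difference in log2 signal between SGX-523 at 48 h and DMSO in EBC-1 (horizontal axis) and MKN-45 (vertical axis) for the 73 tested genes (points, coloured by class, 3 arrays per group). TRiC subunits lie lower in both lines but further down in EBC-1, CCT6B lies high in both, and HSPA5, HYOU1 and DNAJC12 lie below 0 in EBC-1 and above 0 in MKN-45.

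HCC827 was set against each dependent line at 48 h by the same kind of difference. The EBC-1 response was lower than that of HCC827 for 31 of 73 members and higher for 11, with 24.2% of all genes lower and 24.5% higher. The MKN-45 response was lower for 26 and higher for 21, with 21.5% of all genes lower and 29.6% higher, the count of higher members being near its share. HSPE1 (-1.34 in EBC-1 and -0.69 in MKN-45), HSPD1 (-0.97 and -0.76), CCT2 (-1.19 and -0.61), HSP90AA1 (-0.85 and -0.61) and HSPA8 (-0.66 and -0.59) were lower than in HCC827 in each line, and DNAJB9 (1.32 and 1.72), DNAJC4 (1.07 and 1.48) and CCT6B (0.72 and 1.62) were higher. These 2 comparisons share the HCC827 arrays.

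Within HCC827 itself the calls at 48 h were small. The 13 lower members were DNAJC9, DNAJA3, CCT6A, DNAJC2, DNAJA1, DNAJC11, TCP1, HSPH1, CCT3, HSPD1, CCT5, CCT2 and HSPA4, between -0.55 and -0.16. The 9 higher members were DNAJC12, DNAJC4, DNAJC22, CCT6B, HSPB1, DNAJB4, HSPA2, HSPA1B and HSP90B1, between 0.15 and 0.67. HSPA2 is the one of these with all its HCC827 signals (4.19 to 5.00) below the array median. CCT6B (5.09 to 5.78) reached the median on 1 of 9 HCC827 arrays and on 0 of the 3 DMSO arrays. The calls for CCT2 and CCT5 were lost when any 1 of the HCC827 DMSO or 48 h arrays was left out. At 24 h, where 0 members were called with all 3 treated arrays, 22 were called lower without replicate 1, 19 without replicate 2 and 0 without replicate 3, the array that stood apart. Without replicate 1 or 2 that array weighs more in its group. The share of all genes called in these fits is not given here, so the counts are no result about the members.

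In DMSO-treated cells 28 of 73 members were higher in EBC-1 than in MKN-45 and 18 lower, where 33.6% of all genes were higher and 34% lower. DNAJB4 (2.05), HSPB1 (1.78), CCT6B (1.63), DNAJA3 (1.25), DNAJB9 (0.97) and BAG3 (0.96) were higher in EBC-1. HYOU1 (-1.73), DNAJA4 (-1.48) and CCT2 (-0.90) were lower. HSPB1 had 9.75, 9.72 and 9.60 in EBC-1 with DMSO, against 7.94, 7.98 and 7.83 in MKN-45 with DMSO, and HYOU1 had 6.91, 7.03 and 7.04 in EBC-1, against 8.71, 8.77 and 8.70 in MKN-45. HSP90AA1 and HSP90AB1 were not called (-0.16 and 0.03).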

How the data were processed

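The arrays were 27 one-colour 3 prime arrays of 49395 probe sets. The authors deposited 1 table of processed values, which lie between 1.87 and 14.38 and were read as log2 signal from their range. The submitters' processing notes name MAS5, with no later normalization stated there. Groups came from the sample titles and characteristics, since some source names of DMSO samples count upward (MKN-46, HCC828). Of the probe sets, 102 were controls, 44988 had a single gene symbol, 1832 several and 2473 none, and 44961 of the single symbols matched RefSeq.

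Probe sets that reached their array's median on at least 3 of 27 arrays were kept (29684), and the brightest stood for its gene, which left 12386 genes. A limma 3.58.1 model (R 4.3.3) with 9 group means, 18 residual degrees of freedom and an intensity trend gave every difference. P-values were adjusted by Benjamini-Hochberg over all 12386 genes, and an adjusted p under 0.05 was a call. The median SE of a group difference was 0.11. The number of arrays limits precision. The procedure was tested on simulated data. Members and partner lists were chosen with earlier results of these data known. Per-array values were given for HSF1, BAG3, the best known member of each class, and in each class the 2 members with the largest mean rise and fall over the EBC-1 and MKN-45 comparisons among those called the same way at least 2 times. Members with opposite calls in the 2 lines were all named. Promoters were matched by symbol in RefSeq (74 of 93 members). Alternatives were other scalings, filters, a pseudocount of 16, no intensity trend, separate fits per line, the mean of a gene's probe sets, a replicate block and each array left out.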

Additional observations from a re-analysis of the deposited data

Results flagged for a closer look

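The members below are those called in opposite directions in EBC-1 and MKN-45. Since that choice makes the responses differ, the limma test of the difference (adjusted over all 12386 genes, 3 arrays per group) describes its size and adds no support. Opposite calls were found for 3 of 73 members at 24 h and 6 at 48 h, beside 627 and 852 of all genes. They were therefore about as common among the members as among all genes. Each value is the EBC-1 log2 difference from DMSO minus the MKN-45 one. For HSPA12A it was -1.38 at 24 h (SE 0.18, adjusted p = 7.21e-07) and -1.77 at 48 h (SE 0.18, adjusted p = 1e-08), with signals near the array median. For DNAJC12 it was -1.16 at 24 h (SE 0.16, adjusted p = 1.62e-06) and -2.77 at 48 h (SE 0.16, adjusted p = 3.64e-13), and no array of either treated group overlapped its DMSO arrays. For HSPA1B it was 1.14 at 24 h (SE 0.089, adjusted p = 1.86e-10), in a gene whose signal cannot be fully separated from that of HSPA1A.

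Among chaperones of the endoplasmic reticulum at 48 h, the value was -1.31 for HSPA5 (SE 0.052, adjusted p = 4.49e-16), -1.41 for HYOU1 (SE 0.092, adjusted p = 4.5e-12), -0.87 for HSPA13 (SE 0.13, adjusted p = 6.37e-06) and 0.99 for DNAJC1 (SE 0.097, adjusted p = 5.48e-09). The fall of HSPA5, HYOU1 and HSPA13 in EBC-1 was -1.12, -1.02 and -0.57, and their smaller MKN-45 rise was 0.19, 0.39 and 0.31 and depended on the probe set (-0.013 for HSPA13 with the mean of its kept sets). The probe set used for HYOU1 had the largest fall in EBC-1 of the gene's 6.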

How the results depend on the processing

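Of the recomputed counts of called members, 325 stayed within 1.5 times the reported count and 10 moved further. The 4 that moved under separate fits per cell line were the 48 h against 24 h count in EBC-1 (19, against 8 reported), the HCC827 48 h counts of higher members (4, against 9) and lower members (5, against 13), and the HCC827 48 h against 24 h count (7, against 21). With 1 array left out, the HCC827 24 h counts ran from 0 to 2 higher and from 0 to 22 lower (22 without replicate 1, 19 without replicate 2), the HCC827 48 h lower count from 9 to 23, and the EBC-1 48 h against 24 h count from 6 to 19, with 23 and 19 both reached without HCC827 SGX-523 24 h replicate 3. Of 3782 recomputed values of named members, 3645 kept direction and side of the threshold, 85 lost the call, 51 gained it and 1 turned, HSPA13 in MKN-45 at 48 h with the mean of its kept probe sets (-0.013, adjusted p = 0.95). Same-numbered replicates did not deviate together (27 correlations from -0.233 to 0.186, 4 of them over 0.1), so the numbers were not taken as pairs. A fit with the replicate block gave 15 higher and 36 lower members in EBC-1 at 24 h, 16 and 39 at 48 h, 17 and 36 in MKN-45 at 24 h and 25 and 33 at 48 h, and moved no count by 1.5 times. The DMSO comparison of the 2 lines could not be fitted with the block. Signals near or below the array median, as for HSPA2, HSPA12A, DNAJC6, DNAJC28, DNAJB5 and HSPB8, limit the size of their differences.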
